A study of Bos taurus with 8 samples.

Results

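The imprinted genes H19, IGF2, IGF2R, MEG3, PEG3, PEG10, MEST, CDKN1C, PLAGL1 and NNAT were examined in bovine embryonic stem cells (bESCs) on feeders and after adaptation to feeder-free culture. They were chosen by name, as genes whose imprinting is known to be unstable in cultured embryonic cells, and all 10 were among the 32640 genes of the count table. The 4 bESC lines, A, C, D and E, all of XX genotype, came from whole in vitro-produced blastocysts and were derived in normoxia in NBFR medium, which carries FGF2 and the WNT inhibitor IWR-1. In the MEF group each line was sequenced at passage 15 to 17, in 5% oxygen on irradiated mouse embryonic fibroblasts (MEF), and in the feeder-free group at passage 20 to 22, in 5% oxygen on vitronectin, for which the methods add Activin A to the medium. The library titles carry the same medium code, NBFRA, in both groups, so it is not settled whether the MEF group also received Activin A. Feeder removal, vitronectin, the later passage and any difference in medium cannot be told apart. There was 1 library per line in each condition, and the line was the biological replicate, so a change within 1 line has no replicate of its own.

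An imprinted gene is expressed mainly from the allele inherited from one parent. The parental alleles are marked differently in the germline, usually by DNA methylation of an imprinting control region on either the maternal or the paternal copy. The mark is kept through the wave of demethylation after fertilization by zinc finger proteins, TRIM28 and DNA methyltransferases. Many imprinted genes control fetal and placental growth, and errors at these loci are well known after in vitro embryo culture in cattle, where they accompany large offspring syndrome. In other mammals IGF2, PEG3, PEG10, MEST, PLAGL1 and NNAT are known to be expressed from the paternal allele, and H19, IGF2R, MEG3 and CDKN1C from the maternal allele. The libraries here measured total transcript of each gene and not its allele of origin.

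Library totals ran from 44268717 to 54296425 counts on MEF and from 49671478 to 102351560 feeder-free, the largest being line D. Values are given as CPM, the counts of a gene scaled to the library total and by TMM factors, so that libraries of unequal depth can be compared. Summed pluripotency markers (8 genes, with POU5F1, SOX2 and NANOG among them) reached 5455 to 6050 CPM on MEF and 4678 to 5299 CPM feeder-free. Markers of the labelled cell type were thus present as a sum in every library, which does not show each gene. All feeder-free sums lay below all MEF sums, and the median unpaired log2 fold change of the 8 genes was -0.32. The 20 fibroblast markers summed to 494 to 600 CPM on MEF and to 298 to 1326 CPM feeder-free, and the 10 trophoblast markers to 22.5 to 38.4 and 42.8 to 115 CPM, with CDX2, PAG2 and IFNT2 at 0 in all libraries. The 9 endoderm markers summed to 54.7 to 113 CPM on MEF and 129 to 241 CPM feeder-free. The 8 mesoderm markers summed to 7.59 to 13.1 and 16.6 to 26.4 CPM. For both sums, as for trophoblast markers, all feeder-free libraries lay above all MEF libraries. The median unpaired log2 fold change was 0.88 over 5 tested trophoblast markers and 1.26 over 5 tested mesoderm markers. Over 4 tested endoderm markers it was -0.61, so the higher endoderm sum did not hold for these genes as a group. The part of these differences in the changes with culture given below was not tested. In RNA from whole cultures, fewer cells of a type and less RNA per cell cannot be told apart.

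Most of the imprinted genes differed between lines. Between culture conditions the unpaired test called 0 of 9, against 1.73% of all genes. The test paired by line called NNAT alone, lower feeder-free, 1 of 9 against 4.53% of all genes. Line A had no detectable PEG3 or PEG10, close to none of MEST and PLAGL1, and far less NNAT than lines C, D and E, both on MEF and feeder-free. The same line had the most MEG3 and CDKN1C in both conditions. IGF2R of line A lay inside the range of the other lines, and IGF2 lay inside it on MEF and below it feeder-free.

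PEG3, a zinc finger protein that restrains growth, lies at chr18:64099192-64122748 of the ARS-UCD2.0 build. On MEF its counts were 0 in line A, 1499 in line C, 1114 in line D and 2194 in line E, or 0, 27.2, 23.0 and 49.7 CPM. Feeder-free they were 0, 1612, 5644 and 885, or 0, 30.4, 55.2 and 17.0 CPM. Line A was at 0 in both libraries and the other 3 lines were all above 17 CPM. Against a floor of 3 counts in the line A library, the lowest of the other lines was at least 319-fold higher on MEF and at least 283-fold higher feeder-free. Whether feeder reads entered the PEG3 counts of the libraries on MEF was not tested.

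PEG10, a retrotransposon-derived gene needed for placenta formation (chr4:12063954-12076659), had the widest range. Its counts on MEF were 0, 7824, 6697 and 14319 in lines A, C, D and E, or 0, 142, 138 and 324 CPM. Without feeders they were 0, 6976, 10739 and 7503, or 0, 131, 105 and 144 CPM. At this depth PEG10 was not detectable in line A, and the lowest other line exceeded the 3-count floor at least 1920-fold on MEF and at least 1744-fold feeder-free.

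MEST, a hydrolase-like protein of mesoderm (chr4:94250838-94263783), was counted 12 and 6 times in line A, on MEF and feeder-free. In lines C, D and E it was at 13.1, 17.0 and 19.5 CPM on MEF and at 26.6, 15.6 and 32.0 CPM feeder-free, against 0.288 and 0.120 CPM in line A. The other lines did not overlap with line A, and the nearest was 45.5-fold higher on MEF and 129-fold higher feeder-free.

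PLAGL1, a zinc finger transcription factor that regulates a network of imprinted growth genes (chr9:81363243-81419573), was low throughout. It reached 0.144, 1.82, 3.59 and 2.27 CPM in lines A, C, D and E on MEF, and 0.161, 3.69, 10.3 and 2.60 CPM feeder-free. Line A again lay below the other 3 lines in both conditions, on 6 and 8 counts, with the nearest line 12.6-fold and 16.2-fold higher.

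NNAT encodes a small membrane proteolipid of developing neural cells (chr13:66465154-66467548, inside the span of BLCAP). It was at 9.17, 394, 533 and 385 CPM in lines A, C, D and E on MEF. On vitronectin it was at 2.67, 264, 251 and 198 CPM. Line A had NNAT reads, 382 and 133 counts, but lay 42.0-fold below the nearest line on MEF and 74.3-fold below it feeder-free. Within each line the feeder-free value was below the MEF value. Whether reads were counted by strand was not given in the sources used here, so reads of NNAT and BLCAP may not be fully separate, as for MEST with COPG2 and IGF2R with AIRN.

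**Figure D1:**
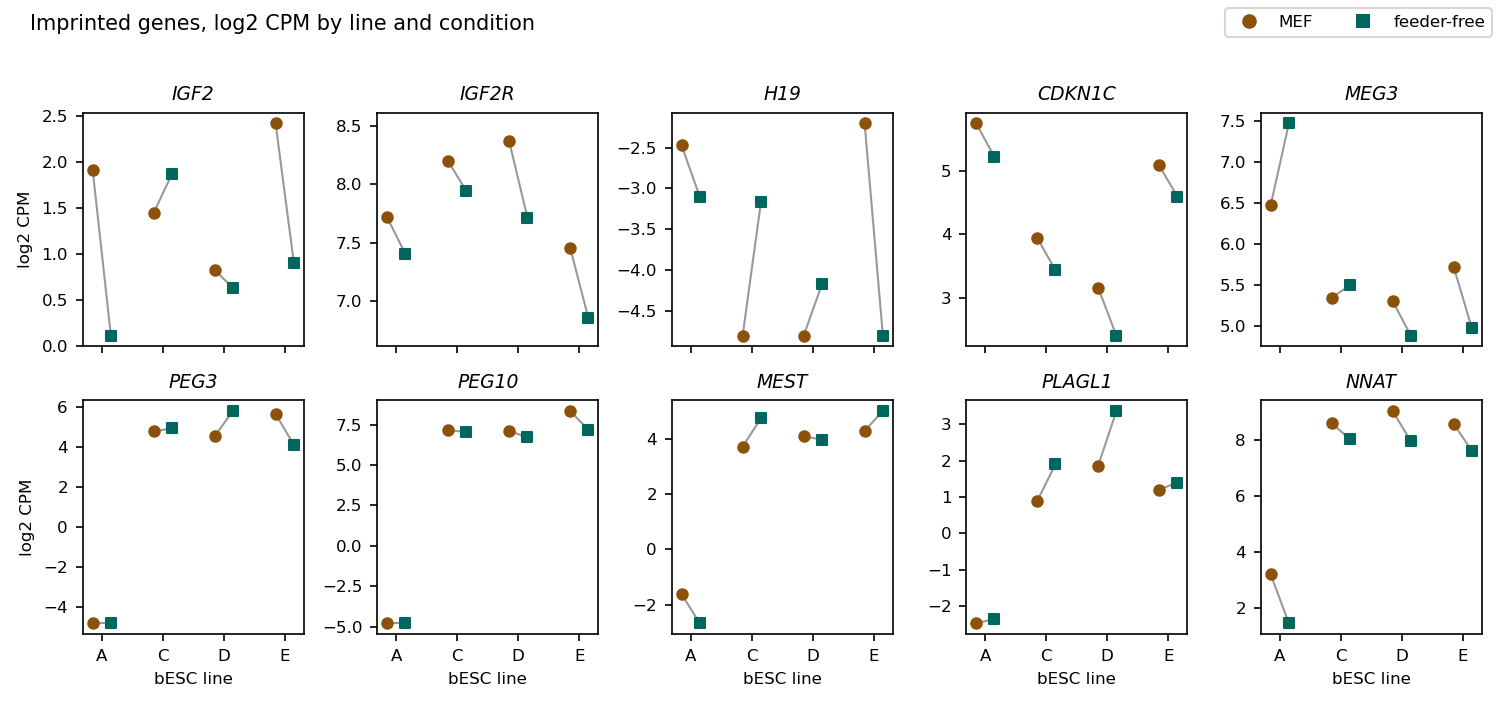
log2 CPM (y axis, each panel on its own scale, prior count of 2) of the 10 imprinted genes in lines A, C, D and E, with circles for libraries on MEF and squares for feeder-free ones. Line A lies at the bottom for PEG3, PEG10, MEST, PLAGL1 and NNAT and at the top for CDKN1C and MEG3, while the H19 panel plots libraries with 0 to 8 counts.

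Among the genes known for maternal expression, MEG3, a long noncoding RNA of the DLK1-DIO3 cluster (chr21:65727804-65746033), was at 88.8, 40.7, 39.6 and 52.9 CPM in lines A, C, D and E on MEF. In feeder-free culture it was at 178, 45.2, 29.5 and 31.4 CPM. Line A was above every other line in both conditions, 1.68-fold over the next line on MEF and 3.93-fold feeder-free.

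CDKN1C, an inhibitor of cyclin-dependent kinases that slows the cell cycle (chr29:48728495-48730501), was at 53.8, 15.4, 8.92 and 34.0 CPM on MEF and at 37.3, 10.8, 5.26 and 24.2 CPM feeder-free, in the order A, C, D and E. The lines kept 1 order in both conditions, A above E, then C, then D. Line A exceeded line E 1.58-fold on MEF and 1.54-fold feeder-free, and line D 6.03-fold and 7.10-fold.

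IGF2R, the receptor that carries IGF2 to lysosomes for degradation (chr9:96197493-96300019), was at 210.4, 293, 331 and 176 CPM on MEF and at 169, 246, 210.1 and 116 CPM feeder-free. Line E was lowest in both conditions, line A came next, and lines C and D were highest. The MEF and feeder-free values overlapped, and within every line the feeder-free value was lower.

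IGF2, the fetal growth factor (chr29:49395153-49422472), was low and followed no line. It was at 3.75, 2.69, 1.73 and 5.32 CPM in lines A, C, D and E on MEF and at 1.04, 3.62, 1.51 and 1.83 CPM feeder-free. Line A ranked as the next to highest on MEF and lowest feeder-free. H19, the noncoding RNA that shares an imprinting control region with IGF2 (chr29:49510998-49513370), had 6, 0, 0 and 8 counts on MEF and 4, 4, 2 and 0 counts feeder-free. With at most 0.181 CPM it did not pass the filter on low counts, and the 2 conditions could not be separated at this depth (two-sided exact permutation test, p = 0.657, smallest possible 0.0286).

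The difference between lines was tested with edgeR's quasi-likelihood F-test on the 3 line terms, with condition in the fit and Benjamini-Hochberg adjustment over the 15744 genes tested. Of the 9 imprinted genes tested, 8 differed between lines at adjusted p under 0.05, against 11.8% of all genes (1865). The adjusted p of this edgeR test was 1.37e-05 for PEG10, 1.86e-05 for NNAT, 9.72e-05 for CDKN1C, 0.0002 for MEST, 0.00164 for PLAGL1, 0.00179 for PEG3, 0.0116 for MEG3 and 0.0133 for IGF2R. IGF2 was the exception (adjusted p = 0.444, edgeR). In lines C, D and E alone, a choice made after the values were seen, 2 of 9 differed between lines against 5.89% of all genes, namely CDKN1C (adjusted p = 0.00285, edgeR) and IGF2R (adjusted p = 0.0186, edgeR). PEG3, PEG10, MEST, PLAGL1, NNAT and MEG3 were not called without line A.

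Line A was then set against the mean of lines C, D and E, with condition in the fit and a change of at least 1.5-fold required, a contrast also chosen after its values were seen. PEG3, PEG10, MEST, PLAGL1 and NNAT were lower in line A, 5 of 9 against 2.91% of all genes, and MEG3 and CDKN1C were higher, 2 of 9 against 4.81% of all genes. The log2 difference of line A was -6.64 (SE 0.46, adjusted p = 4.6e-05, edgeR) for MEST, -5.96 (SE 0.28, adjusted p = 3.67e-06) for NNAT and -4.51 (SE 0.49, adjusted p = 0.000932) for PLAGL1. It was 1.75 (SE 0.26, adjusted p = 0.00421, edgeR) for MEG3 and 1.72 (SE 0.13, adjusted p = 8.01e-05) for CDKN1C. Set against the other lines in the same way, lines C, D and E had 4, 6 and 6 of the 9 called in either direction, against 1.34%, 7.44% and 1.84% of all genes, but line A was then among the lines of reference. For IGF2 (-0.30, SE 0.46) and IGF2R (-0.20, SE 0.13) no difference was detected. Of the genes known for paternal expression 5 of 6 were lower in line A and 0 of 6 higher, and of those known for maternal expression 2 of 3 tested were higher and 0 of 3 lower.

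The share of variation that lay between lines was close to complete for the genes that line A lacked. Of the sum of squares of log2 CPM over the 8 libraries, 99.7% lay between lines for PEG10, 98.6% for PEG3, 97.9% for MEST, 95.1% for NNAT, 94.4% for PLAGL1, 92.7% for CDKN1C, 83.2% for MEG3 and 70.4% for IGF2R. IGF2 had 31.3% between lines and 28.4% between conditions. The median over all genes tested was 49.5% between lines and 18.8% between conditions. The range of log2 CPM ran from 1.52 for IGF2R to 13.1 for PEG10, with a median of 1.08 over all genes.

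**Figure D2:**
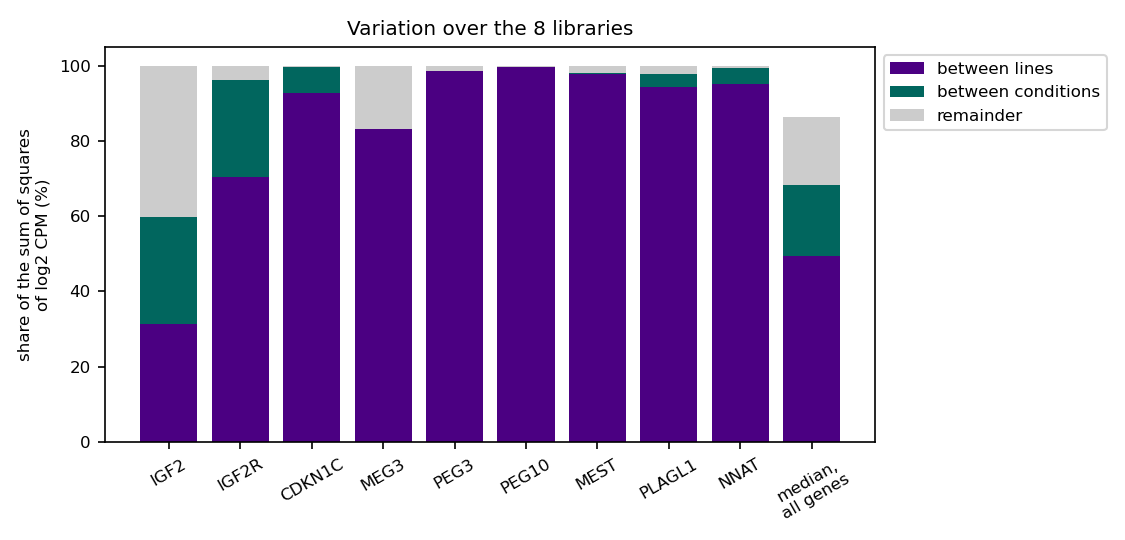
Share (y axis, in %) of the sum of squares of log2 CPM over the 8 libraries that lay between lines, between conditions and in the remainder, as stacked bars for the 9 imprinted genes tested. The last bar stacks the medians of the 3 shares over all genes tested, which are separate medians and do not add to a full bar, and the share between lines was 49.5% there against 99.7% for PEG10.

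Feeder-free culture was compared with culture on MEF over the 4 lines with edgeR's quasi-likelihood test, in which a gene was called at an adjusted p under 0.05 with a change of 1.5-fold or more. None of the 9 imprinted genes tested was upregulated or downregulated, against 1.73% of all genes (272, with 0.724% upregulated and 1% downregulated). At an unadjusted p under 0.05 the edgeR count was also 0 of 9, against 21.6% of all genes. DESeq2 called 0 of the 9, against 8.37% of the 14482 genes with an adjusted p, but MEG3 received no adjusted p there. Mean CPM was 28.0 ± 20.2 (SD, n = 4) on MEF and 19.4 ± 14.4 feeder-free for CDKN1C, 253 ± 71.9 and 185 ± 56.0 for IGF2R, and 330.4 ± 225 and 179 ± 121 for NNAT. In each of these the means differed by less than the SD on MEF, and the standard errors of the log2 fold change reached 1.62 for PEG10, 1.47 for PEG3 and 1.17 for NNAT.

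Because both libraries of a line deviated together, the comparison was also made with the line as a block, which compares each line with itself. NNAT was then downregulated feeder-free (log2 fold change -1.06, SE 0.17, adjusted p = 0.00465, edgeR) and lower in 4 of 4 lines. It was the only call, 1 of 9 downregulated against 4.53% of all genes, with 0 of 9 upregulated. CDKN1C (-0.57, SE 0.12, adjusted p = 0.0156, edgeR) and IGF2R (-0.46, SE 0.11, adjusted p = 0.0248) were below the adjusted p threshold and lower in 4 of 4 lines, but short of the 1.5-fold change required. PLAGL1 was higher in 4 of 4 lines at 0.83 on the log2 scale without passing the test (SE 0.31, adjusted p = 0.0983, edgeR). PEG10 (-0.56, adjusted p = 0.0844), IGF2 (-0.78, adjusted p = 0.212), MEST (0.40, adjusted p = 0.314), PEG3 (-0.02, adjusted p = 0.978) and MEG3 (-0.01, adjusted p = 0.987) did not pass the edgeR test either.

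In lines C, D and E alone, paired by line, the edgeR calls were NNAT (-0.88, adjusted p = 0.00537) and CDKN1C (-0.59, adjusted p = 0.0422), both lower feeder-free, or 2 of 9 against 4.65% of all genes, with 0 of 9 higher against 5.82%. The unpaired fit of these 3 lines called 0 of 9, against 0.127% of all genes (0.0825% higher and 0.0444% lower), and 1 gene, NNAT, had an unadjusted p under 0.05 in edgeR, against 20.6% of all genes. MEG3 changed sign with line A, from a log2 fold change of 0.35 over 4 unpaired lines to -0.33 without line A.

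**Figure D3:**
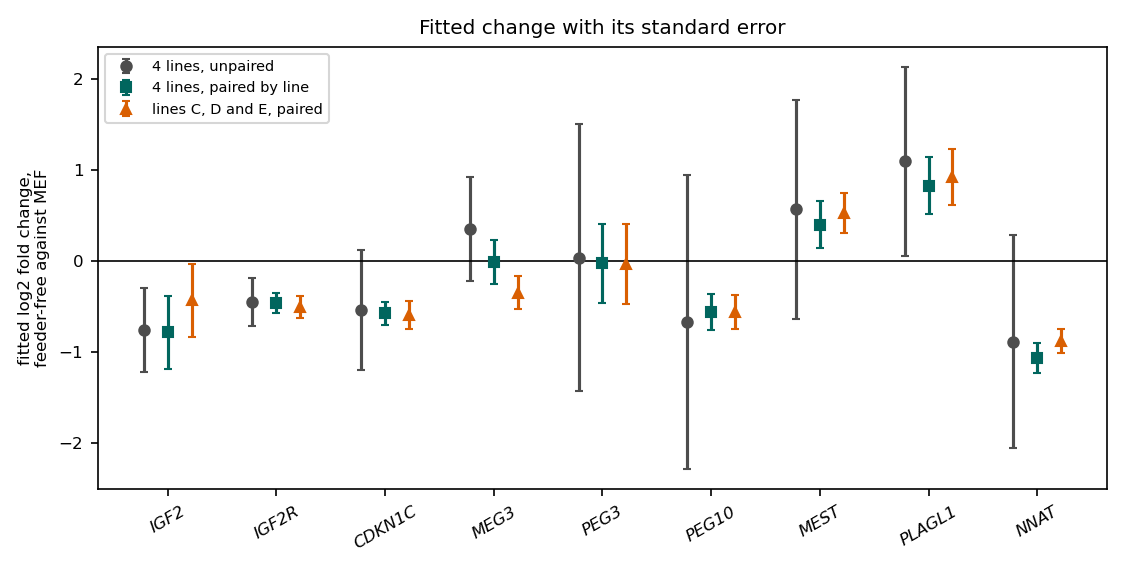
Fitted log2 fold change of feeder-free against MEF (y axis, bars are 1 standard error) for the 9 imprinted genes tested, from the unpaired fit of 4 lines (circles), the fit paired by line (squares) and the paired fit of lines C, D and E (triangles). The bars of NNAT, CDKN1C, IGF2R, PEG10 and IGF2 lie below 0 in both paired fits, and those of MEST and PLAGL1 lie above 0. The unpaired bars are wide for PEG3, PEG10, MEST, PLAGL1 and NNAT.

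Gains and losses within single lines were read as log2 CPM differences of at least 2-fold between the 2 libraries of a line, with no test. Line A lost IGF2 (-1.81 on the log2 scale), NNAT (-1.77) and MEST (-1.05), and gained none of the 9, against losses in 3.7% and gains in 7.76% of all genes. The loss of MEST rests on 12 and 6 counts. MEG3 in line A lay just under the threshold (1.00 after rounding), with 3699 counts on MEF and 8852 feeder-free.

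Line E had losses in IGF2 (-1.52), PEG3 (-1.54) and PEG10 (-1.17) and no gain, against losses in 9.34% and gains in 9.78% of all genes. NNAT in line E was close to the threshold at -0.96. Line C gained MEST (1.02) and PLAGL1 (1.01), each just past the threshold, and lost none, against gains in 6.74% and losses in 3.94% of all genes. Line D gained PLAGL1 (1.5) and PEG3 (1.26) and lost NNAT (-1.09), against gains in 7.67% and losses in 6.74% of all genes.

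PEG3 moved in opposite directions in lines D and E, up from 23.0 to 55.2 CPM in line D and down from 49.7 to 17.0 CPM in line E, and the difference between these changes could not be tested with 1 library per line and condition. The genes missing from line A on MEF were not gained after feeder removal, since PEG3 and PEG10 stayed at 0 counts and MEST and PLAGL1 had 6 and 8 counts feeder-free. In lines C, D and E none of the 9 genes was at 0 in any library.

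**Figure D4:**
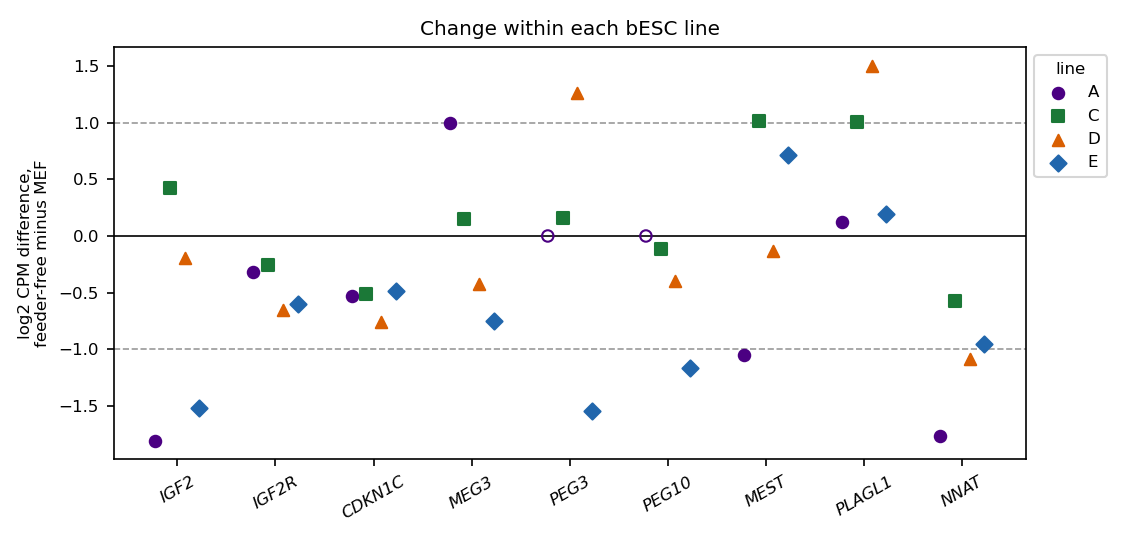
Difference in log2 CPM between the feeder-free and the MEF library of the same line (y axis) for the 9 imprinted genes tested, with lines A, C, D and E as circles, squares, triangles and diamonds. Dashed lines mark a 2-fold change, open circles mark PEG3 and PEG10 in line A, where both libraries held 0 counts, and CDKN1C, IGF2R and NNAT are below 0 in 4 of 4 lines.

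Low transcript levels in line A were also seen for other imprinted genes. A list of 68 further imprinted genes had 61 in the count table, of which 6 were at 0 in all libraries and 39 were tested. By the same edgeR contrast 7 of the 39 were lower in line A, against 2.91% of all genes, and 3 were higher, against 4.81%. Among the 14 tested genes known for paternal expression, 7 were lower (SGCE, SNRPN, NDN, MAGEL2, NAP1L5, INPP5F and DIRAS3) and 0 were higher. The other 7 (DLK1, RTL1, DIO3, MKRN3, L3MBTL1, IMPACT and ZDBF2) did not pass. INPP5F was far from absent in line A, at 53.1 CPM on MEF against 70.7 to 105 CPM in the other lines. Feeder-free it was at 48.8 CPM against 63.6 to 95.2 CPM. SNRPN, NDN and MAGEL2 lie in the same region, so they are not separate cases. Among the 11 tested genes known for maternal expression 0 were lower and 1, MEG8, was higher, and of the remaining tested genes of the list BLCAP (0.62 on the log2 scale) and NDUFA4 (0.72) were higher.

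SNRPN, a spliceosomal gene of the Prader-Willi region (chr21:1937668-1961040), had 26 counts in line A on MEF and 0 feeder-free, where the other 3 lines had 5490 to 12348 counts. MAGEL2, a regulator of protein trafficking in the same region, had 2 and 0 counts in line A and was between 15.1 and 49.1 CPM in lines C, D and E. NAP1L5 was at 0 in line A in both conditions and between 1.07 and 5.84 CPM in the other lines. SGCE, the neighbor of PEG10 that encodes a sarcoglycan, was at 0 in line A in both conditions and between 0.690 and 3.06 CPM elsewhere.

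NDN, a growth suppressor next to MAGEL2, differed among the other lines too. It was at 0 in both libraries of line A, at 4.65 and 2.49 CPM in line C, at 54.7 and 48.5 CPM in line E, and fell in line D from 268 counts on MEF to 0 feeder-free. DIRAS3, a small GTPase, had 0 and 1 counts in line A and 0 and 4 in line D, against 6.14 and 1.17 CPM in line C and 3.26 and 10.1 CPM in line E.

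**Figure D5:**
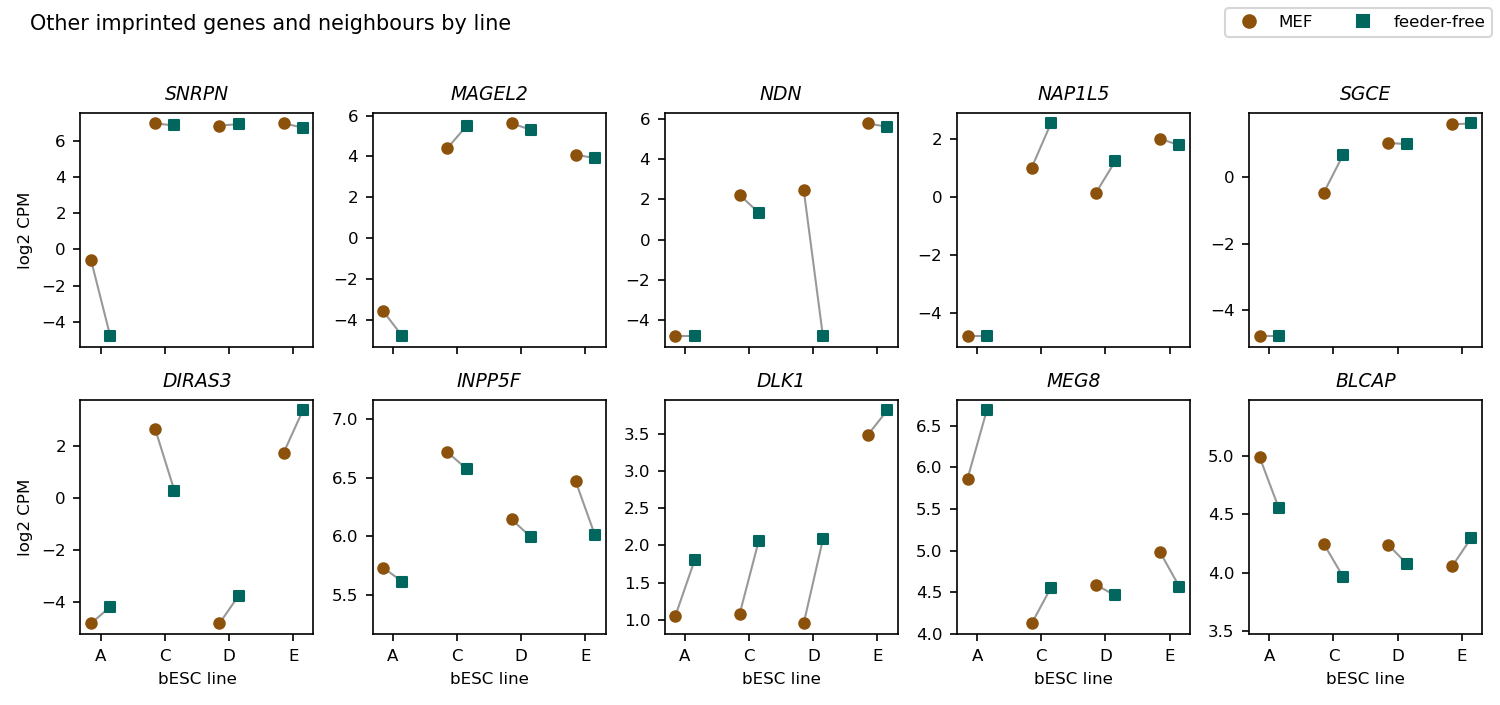
log2 CPM (y axis, each panel on its own scale, prior count of 2) of 10 further imprinted genes in lines A, C, D and E, with a circle for the library on MEF and a square for the feeder-free library. SNRPN, MAGEL2, NDN, NAP1L5 and SGCE are at or near the floor in line A, NDN also in feeder-free line D, and MEG8 and BLCAP are highest in line A.

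The neighbors of MEG3 differed from each other. MEG8, a noncoding RNA of the same cluster, followed MEG3 with 58.2, 17.4, 24.0 and 31.6 CPM in lines A, C, D and E on MEF and 103, 23.4, 22.0 and 23.7 CPM feeder-free. DLK1, the NOTCH-related growth regulator of the paternal allele, was instead highest in line E, at 11.1 CPM on MEF and 14.0 CPM feeder-free, with 1.90 to 2.07 and 3.45 to 4.20 CPM in lines A, C and D. DLK1 was upregulated feeder-free in the paired fit (0.80, SE 0.21, adjusted p = 0.0337, edgeR) and higher in 4 of 4 lines, but not called in the paired fit of lines C, D and E (0.81, adjusted p = 0.0599), where HM13, a signal peptide peptidase, was the only call of the list (0.63, adjusted p = 0.0406).

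DLK1 was the only call among the other imprinted genes in the paired fit of 4 lines, 1 of 39 upregulated against 5.52% of all genes. In the unpaired edgeR fit 0 of 39 were called against 1.73% of all genes, 4 had an unadjusted p under 0.05 against 21.6% of all genes, DESeq2 called 0 against 8.37%, and the list had a median log2 fold change of -0.07 against 0.006 over all genes. GNAS, a G protein subunit, had the highest mean of the list at 851 to 1421 CPM, followed by CD81, a tetraspanin, at 209 to 333 CPM. BLCAP was at 31.7 CPM in line A on MEF against 16.6 to 18.9 CPM in the other lines, and COPG2, the neighbor of MEST, at 64.1 to 71.6 CPM on MEF in all 4 lines.

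Genes near the 10 imprinted genes differed in line A about as often as all genes. Within 500 kb, 79 tested genes were in neither imprinted list, and 6 of them (7.59%) differed between line A and the other lines, 2 lower and 4 higher, against 7.72% of all genes. Near MEG3, BEGAIN was lower (-1.25) and the uncharacterized LOC112443307 (2.47) and LOC112443315 (1.92) were higher, but both LOC genes lie inside the span of MEG8. Without the 8 genes whose span overlaps a listed imprinted gene, 4 of 71 (5.63%) differed, 2 lower and 2 higher.

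A count over all genes was made of those with at most 3 counts in both libraries of 1 line and at least 1 CPM in every library of the other lines, a rule set after the values were seen. Line A had 5 such genes: PEG10, PEG3, NAP1L5 and MAGEL2, which are imprinted, and LOC100849023, a snoRNA at chr21:1964407-1964480 downstream of SNRPN. Line C had 2 (CITED4 and IGFBPL1), line D had 3 (LDAF1, ARMCX1 and TCEAL9) and line E had 0, and none of these 5 was in the imprinted lists. Genes outside the imprinted lists were also far lower in line A without meeting the cut. LOC112444531 had 29 and 44 counts in line A against 9340 to 40785 in the other lines. ZNF567 had 19 and 14 against 400 to 1118.

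The genes most like the 4 imprinted genes of widest range were named by Pearson's r of log2 CPM over the 8 libraries, as a description in which both libraries of a line share their cells. For PEG10 they were LOC100849023 (r = 0.995), KBTBD6 (0.994) and LOC101904177 (0.994), and for PEG3 they were KLC1 (0.994), PEG10 (0.992) and LOC112444531 (0.990). For MEST they were PEG10 (0.984), TMEM177 (0.983) and RMI2 (0.983). For NNAT they were the noncoding LOC100848941 at chr21:2005424-2138325 (0.992), ZNF567 (0.991) and SNRPN (0.986). KBTBD6 had 10 and 21 counts in line A against 1083 to 2303 in the other lines, and LOC100848941 had 4 and 2 against 492 to 1499. Within lines C, D and E the r of PEG3 with PEG10 was 0.246 and that of PEG10 with MEST 0.0812, so the likeness lay in the step between line A and the rest.

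The pluripotency markers of line A summed to 5560 CPM on MEF, inside the range of the other lines, and to 4678 CPM feeder-free, the lowest of that group. Its fibroblast markers were lowest in both conditions at 494 and 298 CPM, and its trophoblast markers highest on MEF at 38.4 CPM and lowest feeder-free at 42.8 CPM. The part of these line A values in its imprinted gene levels was not tested.

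Several listed factors that keep imprints were expressed in all lines, but NLRP2 was at 0 in all libraries and KHDC3L had at most 1 count. The list also held enzymes that act on methylcytosine, such as TET2. Of 23 listed genes 19 were tested, and TRIM28, the corepressor that imprint-binding zinc finger proteins recruit, had the highest mean at 905 to 1346 CPM, followed by DNMT3B, a DNA methyltransferase, at 594 to 1716 CPM. ZFP57, a zinc finger protein of imprinting control regions, was at 14.2 to 24.7 CPM on MEF and 13.1 to 21.1 CPM feeder-free. SETDB1, a histone H3 lysine methyltransferase that works with TRIM28, was the only gene of the list called in the unpaired edgeR fit (-0.59, SE 0.10, adjusted p = 0.0331), 1 of 19 downregulated against 1% of all genes. The fold change lay at the 1.5-fold threshold and the call was kept in 3 of 17 alternatives, being lost with RLE scaling (-0.58), no scaling (-0.55), no filter, at least 10 counts in every library, DESeq2, lines C, D and E, and on leaving out any library but feeder-free line A (log2 fold change -0.65 to -0.55 and adjusted p 2.33e-05 to 0.116 over the alternatives). SETDB1 was lower in 4 of 4 lines, from 67.0 to 74.0 CPM on MEF to 44.9 to 52.8 CPM feeder-free.

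The paired fit called 4 of 19 downregulated, against 4.53% of all genes, and 1 upregulated, against 5.52%. Besides SETDB1 the downregulated genes were the methylcytosine oxidase TET2 (-0.99, adjusted p = 0.0085, edgeR), the histone demethylase KDM1B (-0.59, adjusted p = 0.0428) and the oocyte factor PADI6 (-1.15, adjusted p = 0.00206). ZFP42, the pluripotency-associated REX1, was upregulated (1.35, adjusted p = 0.0412, edgeR) and higher in 3 of 4 lines. In the paired fit of lines C, D and E, 5 of 19 were called, against 10.5% of all genes in either direction. SETDB1, KDM1B and ZFP42 were no longer called there, TET2 and PADI6 were, and ZNF445 (-0.59), TET1 (-0.65) and TET3 (-0.79) were called lower. The list's median log2 fold change was -0.20 over both fits, against 0.006 and 0.01 over all genes. In the contrast of line A with the other lines PADI6 was higher (1.08), 1 of 19 against 4.81% of all genes. DNMT3B was lower (-0.71), 1 of 19 against 2.91%, while TRIM28 (-0.21) and ZFP57 (-0.47) did not pass. On MEF, DNMT3B was at 594 CPM in line A and 601 CPM in line E, against 1097 and 1716 CPM in lines C and D. Feeder-free it was at 748 CPM in line A and 968 to 1501 CPM in the other lines.

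In the IGF pathway around IGF2 and IGF2R, of 24 listed genes 21 were tested, and IGFBP2, a binding protein that sequesters IGFs, had the highest mean, at 2049 to 3744 CPM on MEF and 1067 to 2104 CPM feeder-free. IGF2BP1, an RNA-binding protein that binds IGF2 transcripts, came next at 625 to 1077 CPM. IRS2, an adaptor of the IGF1 receptor, was downregulated in the unpaired edgeR fit (-1.03, SE 0.16, adjusted p = 0.0331), 1 of 21 against 1% of all genes, and 0 were upregulated. That call was lost in lines C, D and E (adjusted p = 0.0741, edgeR) and on leaving out any library but feeder-free line A (adjusted p 3.19e-06 to 0.116 over 17 alternatives, called in 9).

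With the line as a block 7 of 21 were downregulated, against 4.53% of all genes, and 2 upregulated, against 5.52%. The downregulated genes included the binding proteins IGFBP5 (-2.68, adjusted p = 0.000298, edgeR) and IGFBP2 (-0.69), IGFALS (-1.68), and the adaptors IRS2 (-1.02) and IRS4 (-1.02). The others were STC1 (-1.63) and STC2 (-0.74), which inhibit the protease that frees IGF from its binding proteins. IGF1R, the signaling receptor, was upregulated (0.92, adjusted p = 0.0195, edgeR) in 4 of 4 lines, and IGFBP3 (1.51, adjusted p = 0.0304) in 3 of 4. IGFBP3 was present mainly in lines A and E, at 96.1 and 151 CPM on MEF and 181 and 444 CPM feeder-free, with at most 0.866 CPM in lines C and D. The ligand IGF1 had at most 0.156 CPM in any library.

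Among 12 cyclin and cyclin-dependent kinase genes listed beside CDKN1C, CCNE2, a cyclin of the G1 to S transition, was upregulated in the unpaired edgeR fit (0.84, adjusted p = 0.0486), 1 of 12 against 0.724% of all genes, a call that was kept in 6 of 17 alternatives and in none that left out 1 library (adjusted p 0.000133 to 0.13 over the alternatives). The paired fit called CCNE2 (0.85) and the inhibitor CDKN1A (1.26) upregulated and CCND1 (-1.0) downregulated, 2 and 1 of 12 against 5.52% and 4.53% of all genes, with CDKN1A higher in 4 of 4 lines. CCND1 was not called in the paired fit of lines C, D and E (adjusted p = 0.124, edgeR). CDKN1A was lower in line A than in the other lines (-1.74, adjusted p = 0.0029, edgeR), while CDKN1C was higher in line A.

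Of the other neighbors, PHLDA2 beside CDKN1C had 0 counts in the 4 libraries on MEF and 2 to 10 feeder-free, KCNQ1 had 3 to 13 counts and AIRN, the antisense transcript of IGF2R, 0 to 6. Of 11 microRNA genes hosted in these clusters 9 were in the count table, 7 of them at 0 in all libraries, and none passed the filter on low counts.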

How the data were processed

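RNA was sequenced as 150 base pair paired-end reads. Per the methods, the authors trimmed reads with Trimmomatic, aligned them to ARS-UCD2.0 with STAR, removed optical duplicates with Picard and alignments of MAPQ under 30 with samtools, and counted with featureCounts (Subread 1.6.2 in the submitters' processing notes). The deposited values are raw counts per gene, not pooled. The authors removed reads that a pure MEF sample placed on the bovine genome, and whether the deposited counts have this step was not given in the sources used here. Of the counts from 1 to 20, 69.8% to 75.3% were even. Whether both mates of a read pair were counted was not given in the sources used here, so small counts may stand for fewer read pairs.

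Of 32640 genes, 3 had no values, and 30268 were matched by symbol to RefSeq (ARS-UCD2.0) for positions. Genes passing filterByExpr (15744) were scaled by TMM and fitted with edgeR 4.0.16 (R 4.3.3, quasi-likelihood test, Benjamini-Hochberg adjustment). log2 CPM used a prior count of 2. The study's methods name edgeR, TMM, removal of low counts, no batch correction and the thresholds used here, but not the model, and the main comparison here was fitted on condition alone. Line terms were tested with condition in the fit. The line letter comes from the labels. Libraries of the same line deviated together from their group means (r = 0.421 to 0.664, other pairs -0.523 to 0.249), so paired values are given where they change a call. Libraries within a condition differed beyond sampling noise. Alternatives used DESeq2 1.42.0, other scalings, filters, prior counts and fold thresholds, and left out each library. The fits were tested on simulated data.

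The imprinted genes and all lists were chosen with earlier results of these data known, and allele assignments came from general knowledge. Genes named were the 10 imprinted genes, called genes and the 2 of highest mean CPM in each other list, adjacent imprinted genes, and for 4 genes the 3 most correlated genes. Genes named from the line A contrast, NDN, DIRAS3, HM13, ZNF445, TET1, TET3, ZFP57, IGF1, IGFBP3 levels by line and the genes absent from 1 line were chosen after their values were seen. No sequences were used here.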

Additional observations from a re-analysis of the deposited data

Results flagged for a closer look

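In each group of 4 libraries the highest and the lowest value were examined, for 46 groups of values, and 17 had a library far from the other 3. For independent groups not chosen by their values, 1 in 20 would be about 2.3. Some genes here, such as SNRPN and MAGEL2, were named after their values were seen, and groups share lines. The 17 therefore cannot be weighed against that number. Most of the flagged libraries were line A. On MEF, log2 CPM in line A was -4.80 for PEG3 (4.53 to 5.64 in the other lines), -4.80 for PEG10 (7.11 to 8.34), -1.63 for MEST (3.72 to 4.29), 3.20 for NNAT (8.59 to 9.06), -0.60 for SNRPN (6.84 to 6.96) and -3.58 for MAGEL2 (4.08 to 5.62). Values of -4.80 stand for 0 counts. In feeder-free line A it was -4.80 for PEG3 (4.09 to 5.79), PEG10 (6.71 to 7.17), SNRPN (6.72 to 6.92), MAGEL2 (3.92 to 5.49) and SGCE (0.68 to 1.63), -2.68 for MEST (3.96 to 5.00) and 1.44 for NNAT (7.63 to 8.05). MEG8 stood above the others in feeder-free line A at 6.68 (4.46 to 4.57).

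DLK1 stood apart in line E, at 3.48 on MEF (0.95 to 1.07 in the other lines) and 3.81 feeder-free (1.80 to 2.08). Total counts were 102351560 in feeder-free line D and 49671478 to 51320214 in feeder-free lines A, C and E. Both libraries of a line share their cells, so flags of 1 gene in both conditions are not independent.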

How the results depend on the processing

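No imprinted gene of the 9 was called higher under any alternative, and calls of lower expression were 1 with the replicate block (NNAT) and 2 with the block in lines C, D and E (NNAT and CDKN1C), a setting chosen after the values were seen. Of 149 fold changes of these genes over alternatives, 136 kept their direction and side of the threshold, 3 passed it newly and 10 reversed. The reversals were MEG3 with the block (-0.0079), in lines C, D and E (-0.33) and in those lines with the block (-0.34), and PEG3 with the block (-0.024 in 4 lines and -0.025 in lines C, D and E). Leaving out 1 library gave -0.65 to 0.67 for MEG3 (reversed without feeder-free line A), -0.66 to 0.61 for PEG3 (reversed without MEF line A at -0.37, feeder-free line C at -0.05 or feeder-free line D) and -1.08 to 0.023 for PEG10 (reversed without MEF line E). The block changed no other call of the imprinted genes.

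Genes differing between lines numbered 8 of 9, 4 when at least 10 counts were required in every library (fewer genes tested), 2 to 8 when a line was left out (2 without line A) and 4 in the contrast of line C with the other 3, which include line A. Over all genes the 1865 that differed between lines became 3379 with no filter, 3888 with DESeq2 and 762 to 2670 without 1 line. All genes called higher (114) became 73 with no filter, 199 with at least 10 counts, 695 with DESeq2, 869 with the block, 0 to 259 without 1 library, 13 in lines C, D and E and 918 there with the block. All genes called lower (158) became 91 with no scaling, 97 with no filter, 517 with DESeq2, 713 with the block, 0 to 231 without 1 library, 7 in lines C, D and E and 733 there with the block. Losing any library but feeder-free line A left at most 5 calls in a direction, and the cause was not tested.

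Other imprinted genes had 1 call with the block and 1 with the block in lines C, D and E, both higher but different genes (DLK1 and HM13). Of the imprint maintenance genes 1 was called, against 0 with RLE, no scaling, no filter, at least 10 counts or lines C, D and E, 2 with DESeq2 or no fold threshold, 5 with the block in 4 lines and 5 in lines C, D and E (TET2 and PADI6 shared) and 0 to 3 without 1 library. IGF pathway calls (1) became 3 with at least 10 counts, 6 with DESeq2, 9 with the block, 10 with the block in lines C, D and E, 0 in those lines unpaired and 0 to 4 without 1 library. Line A had 1 gain, MEG3, instead of 0 with a prior count of 0.5, RLE, no scaling or a 1.5-fold threshold. At 1.5-fold line D had 3 losses, and line E 1 gain and 6 losses. At 4-fold lines A, D and E had 0 losses and lines C and D 0 gains.

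Depth limits H19 (at most 8 counts) and, in line A, MEST and PLAGL1 (6 to 12 counts), whose changes within that line rest on few reads. Zero counts mean only that a gene was not detected. Reads without molecular identifiers are not independent molecules.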
